A study of Mus musculus with 11 samples.

Results

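The genes described here encode 10 transcription factors that act on lipid handling and on the lysosome: the bHLH repressors Bhlhe40 and Bhlhe41, the MiT/TFE factors Mitf, Tfeb, Tfec and Tfe3, and the nuclear receptors Nr1h2, Nr1h3, Pparg and Rxra. They were taken by gene name from a table of 55401 genes, and each name matched 1 gene. Transcripts were counted in microglia, the resident macrophages of the brain, sorted as live CD11b+/CD45+ cells from mice aged 9 to 10 months on a C57BL/6 background. There were 3 Tyrobp-/-;Inpp5d+/-;NLGF libraries (the compound mutant), 2 Tyrobp-/-;NLGF libraries, 3 Inpp5d+/-;NLGF libraries and 3 NLGF libraries. Every mouse carried NLGF, a set of knock-in mutations in App that gives amyloid plaques, so the NLGF group is a plaque-bearing control and no library comes from a mouse without amyloid. Tyrobp encodes DAP12, the adaptor of the receptor TREM2, and Inpp5d encodes the phosphatase SHIP1. The study asked how SHIP1 bears on the loss of TREM2 signalling.

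BHLHE40 and BHLHE41 bind E-box DNA as dimers, repress transcription and are known as brakes on lipid and lysosome genes in macrophages and microglia. MITF, TFEB, TFEC and TFE3 bind E-box-containing CLEAR elements and switch on lysosomal and autophagy genes, and their entry into the nucleus is set by mTORC1 at the lysosome. The liver X receptors (Nr1h2 and Nr1h3) and PPAR gamma (Pparg) work as partners of RXR alpha (Rxra) and turn on cholesterol export and fatty acid genes when a lipid ligand is bound.

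The E-box read by several of these factors has the letters CACGTG, which are the same on both strands. Promoters running from 250 bases before to 50 bases after the start of transcription, from RefSeq, build GRCm38.p6, were found for 9 of the 10 genes, all except Bhlhe40, with 18 promoters in all. The letters CACGTG stood in 1 of these 18 promoters, that of Bhlhe41, and in 7.15% of all 32851 promoters of the table. Stretches before the start site of Bhlhe41 and of 2 pathway genes described below, Hif1a and Mcoln1, are shown as examples of the motif in its surroundings, 5′ to 3′ on the strand of the gene, with the E-box in capitals. They lie at chr6:145865559-145865670 (minus strand), chr12:73907667-73907766 (plus strand) and chr8:3500359-3500456 (plus strand), and the E-box begins at position -153, -135 and -71 from the start. Mcoln1 has another at -45, outside the stretch shown.
Bhlhe41: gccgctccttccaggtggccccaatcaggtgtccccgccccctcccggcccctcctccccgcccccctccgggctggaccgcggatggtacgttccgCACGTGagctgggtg
Hif1a: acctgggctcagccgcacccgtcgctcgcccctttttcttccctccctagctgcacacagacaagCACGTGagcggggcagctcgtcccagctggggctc
Mcoln1: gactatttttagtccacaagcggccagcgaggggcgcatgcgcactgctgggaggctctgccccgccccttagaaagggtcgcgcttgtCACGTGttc

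Library totals ran from 49929944 to 62155834 counts in the 5 Tyrobp-/- libraries and from 29490567 to 66637052 counts in the 6 libraries with Tyrobp. Tyrobp itself had 3.22 to 8.94 CPM (read counts scaled to library size) in the Tyrobp-/- libraries, against 1952 to 2559 CPM in the others. Inpp5d had 190 to 280 CPM in the Inpp5d+/- libraries, against 205 to 449 CPM in the libraries with both copies, and the ranges overlapped. All 9 defining microglia markers examined were abundant in every library, the lowest being Sall1 at 124 CPM. The summed level of 12 neutrophil markers was 256 to 9936 CPM in compound mutant libraries and 4451 to 19182 CPM in Tyrobp-/-;NLGF libraries, against 54.7 to 189 CPM in Inpp5d+/-;NLGF libraries and 0.721 to 233.1 CPM in NLGF libraries. All 12 were detected in each Tyrobp-/- library. Retnlg, Cxcr2 and Ly6g, which are among the calls that follow, had no counts in several libraries with Tyrobp, so their calls rest on the Tyrobp-/- libraries. Averaged over both Inpp5d genotypes 9 of the 12 rose, where 2.08% of all tested genes were called higher by edgeR. In the separate comparisons that change Tyrobp none passed the adjustment, though 11 or 12 had an unadjusted p under 0.05, and S100a8 kept its averaged call in 3 of 11 fits that leave out a library. The sum of 12 monocyte markers was 122 to 2017 CPM in the Tyrobp-/- libraries, against 29.3 to 103 CPM in the others. Border macrophage markers, 10 in number, summed to 33.2 to 135 CPM in the Tyrobp-/- libraries, against 7.43 to 35.03 CPM in the others. The libraries with the most S100a8, a neutrophil gene, were Tyrobp-/-;NLGF replicate 1 (6923 CPM) and compound mutant replicate 2 (3644 CPM). Compound mutant replicate 1 stood apart on the second dimension of a multidimensional scaling and held the most neuron marker RNA (33.8 CPM summed over 10 markers). Sample titles carry running numbers that do not interleave between mice with and without Tyrobp, so any difference in handling and Tyrobp genotype cannot be told apart.

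Bhlhe40 had the largest fitted change of the 7 regulators detected well in every library, and it fell in both groups without Tyrobp. It had 2.49, 4.85 and 4.92 CPM in the compound mutant libraries and 9.26 and 3.62 CPM in the Tyrobp-/-;NLGF libraries. In the Inpp5d+/-;NLGF libraries it had 81.1, 72.6 and 91.1 CPM, and in the NLGF libraries it had 60.7, 62.5 and 72.4 CPM. Every Tyrobp-/- library was low and every library with Tyrobp was high, with a wide gap between them, and the low values still rested on 132 to 465 reads per library. The gene lies on the plus strand at chr6:108660629-108666925 in the coordinates of the deposited table, and its annotated exons hold 4705 bases. In a bulk sample, fewer cells that express a gene and less of its RNA per cell cannot be told apart.

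**Figure D1:**
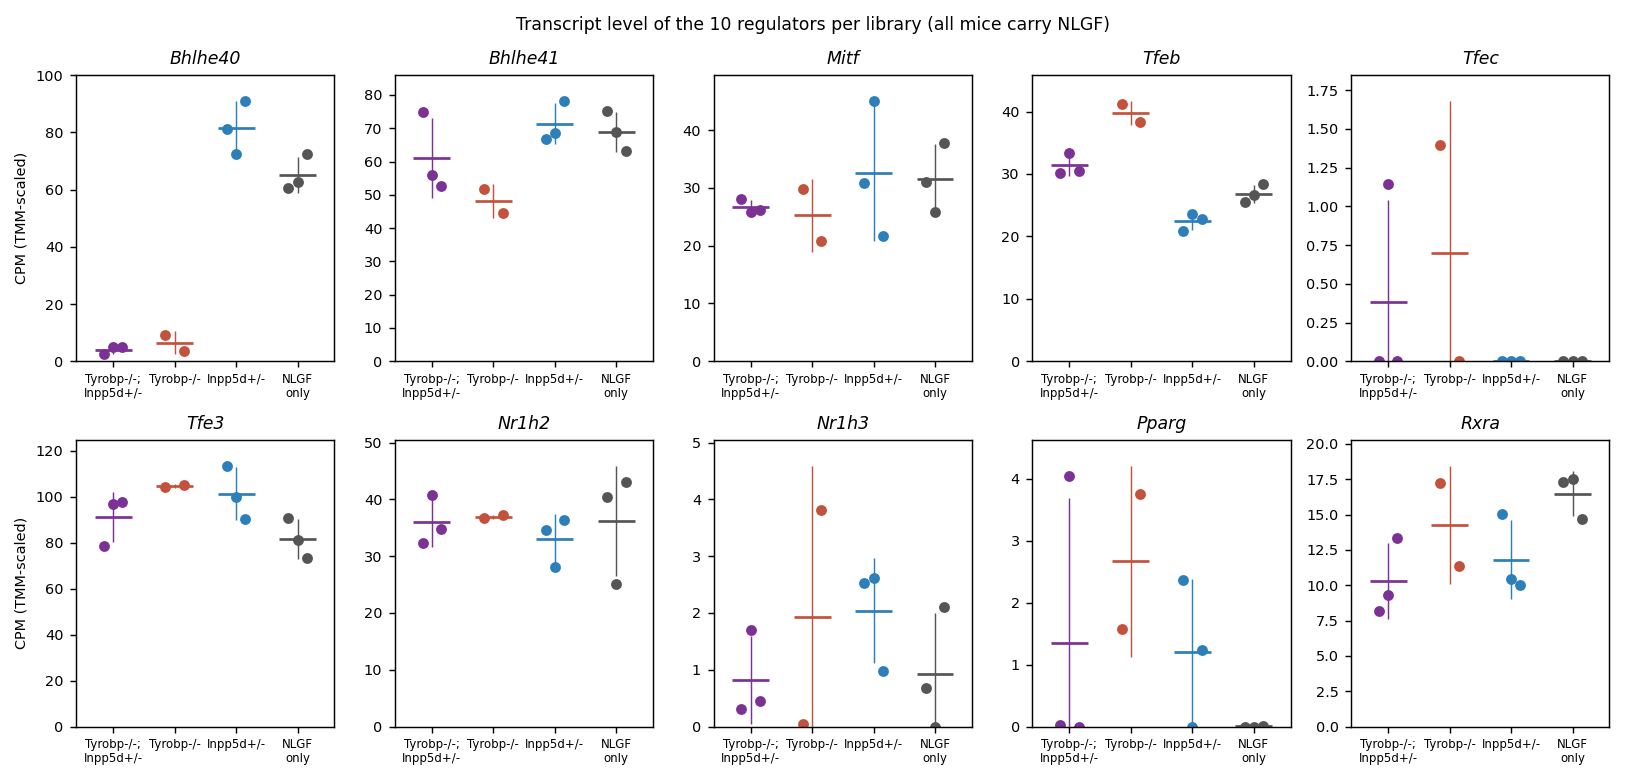
Transcript level of each of the 10 regulators, in CPM scaled by TMM, by genotype. Points are libraries, horizontal lines are group means and vertical lines are ± 1 SD, stopped at 0. Each panel has its own axis from 0. For Bhlhe40 all 5 Tyrobp-/- libraries lie at 9.26 CPM or below and all 6 libraries with Tyrobp at 60.7 CPM or above, and for Tfeb the same sets of libraries also do not overlap.

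The fall of Bhlhe40 passed the test in each comparison of a Tyrobp-/- group with a group that has Tyrobp. For Tyrobp-/-;NLGF against NLGF the log2 fold change was -3.34 (SE 0.43, adjusted p = 0.00885, edgeR's quasi-likelihood test with Benjamini-Hochberg adjustment). For the compound mutant against Inpp5d+/-;NLGF it was -4.32 (SE 0.38, adjusted p = 0.00139 by edgeR), which is 19.9-fold lower. For the compound mutant against NLGF it was -3.99 (SE 0.38, adjusted p = 0.00159 by edgeR). Averaged over both Inpp5d genotypes, the Tyrobp-/- effect was -3.83 (SE 0.29, 95% interval -4.49 to -3.17, adjusted p = 0.000162 by edgeR), or 14.2-fold lower, and 21 of the 20390 tested genes had a smaller p. Among the alternatives run, only in the fit restricted to Tyrobp-/-;NLGF and NLGF, with 5 libraries, was a call lost (adjusted p = 0.0616). With the mean neutrophil marker level as a covariate the averaged change was -4.62. It was -4.31 when both libraries richest in S100a8 were left out. The neutrophil sums did not overlap between libraries with and without Tyrobp, so the covariate fit cannot separate them from Tyrobp genotype. The other fit drops the Tyrobp-/- library with the most Bhlhe40 and leaves a single Tyrobp-/-;NLGF library. The part of neutrophil RNA in the size of the fall was therefore not tested.

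Inpp5d genotype did not give a detectable change in Bhlhe40. These comparisons had little power, as Inpp5d itself did not pass. Its averaged Inpp5d+/- change was -0.70 (unadjusted p = 0.00431, adjusted p = 0.943 by edgeR). For Bhlhe40 the values were as follows. The log2 fold change was 0.32 (95% interval -0.41 to 1.06) for Inpp5d+/-;NLGF against NLGF, where the 3 Inpp5d+/-;NLGF libraries all lay above the 3 NLGF libraries. For the compound mutant against Tyrobp-/-;NLGF it was -0.65 (95% interval -1.50 to 0.19), and the libraries overlapped. The test of the interaction, which asks whether the Tyrobp effect differed between Inpp5d genotypes, gave -0.98 (95% interval -2.10 to 0.14, adjusted p = 0.9999 by edgeR).

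An antisense transcript, 0610040F04Rik, shares 118 exon bases with Bhlhe40 on the opposite strand. It averaged 0.27 CPM in compound mutant libraries and 0.388 CPM in Tyrobp-/-;NLGF libraries, against 5.34 CPM in Inpp5d+/-;NLGF libraries and 4.63 CPM in NLGF libraries. Its averaged log2 fold change was -3.93 (SE 0.36, adjusted p = 0.000399 by edgeR). The library kit does not mark strand, so reads of the 2 genes in the shared bases cannot be told apart.

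Bhlhe41, the paralog of Bhlhe40, gave no call and a much smaller difference. It had 74.9, 55.9 and 52.5 CPM in compound mutant libraries and 51.7 and 44.6 CPM in Tyrobp-/-;NLGF libraries, against 66.8, 68.7 and 78.3 CPM in Inpp5d+/-;NLGF libraries and 75.0, 68.8 and 63.1 CPM in NLGF libraries. Most Tyrobp-/- libraries were below the others, but compound mutant replicate 1 was among the highest. The averaged log2 fold change was -0.37 (95% interval -0.63 to -0.11) and missed the threshold (adjusted p = 0.115 by edgeR). Without compound mutant replicate 1, the library that stood apart, it was -0.46 and passed (adjusted p = 0.0415), and it also passed with DESeq2 (adjusted p = 0.0353). With the neutrophil covariate it was -0.15 (adjusted p = 0.903 by edgeR), and over the libraries left out in turn it ran from -0.46 to -0.32. Gm43909, an annotated transcript on the opposite strand that shares 1280 exon bases with Bhlhe41, had 8.17 to 16.5 CPM over all libraries. Reads of Gm43909 and Bhlhe41 in the shared bases cannot be told apart either.

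Per kilobase of exon the balance of both repressors was reversed between the genotypes. Bhlhe40 had 0.528 to 1.97 RPKM (CPM per kilobase of exon) in Tyrobp-/- libraries, against 12.9 to 19.4 RPKM in libraries with Tyrobp. Bhlhe41 had 6.64 to 11.1 RPKM in Tyrobp-/- libraries, against 9.39 to 11.7 RPKM in libraries with Tyrobp. The ratio of Bhlhe40 to Bhlhe41 was therefore 0.0474 to 0.256 in the Tyrobp-/- libraries and 1.15 to 1.73 in the others. On this scale Bhlhe40 was the higher of the pair in all 6 libraries with Tyrobp, and Bhlhe41 in all 5 without it. Their summed level was 7.41 to 11.7 RPKM in Tyrobp-/- libraries, against 23.5 to 31.0 RPKM in the rest. RPKM divides by the full exon length, but Bhlhe41 shares 1280 of its 6720 exon bases with Gm43909. Bhlhe40 shares 118 of 4705 with 0610040F04Rik. How reads in shared bases were counted is not known, so the order is uncertain where the ratio is near 1, as in NLGF replicate 1 (1.15).

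**Figure D2:**
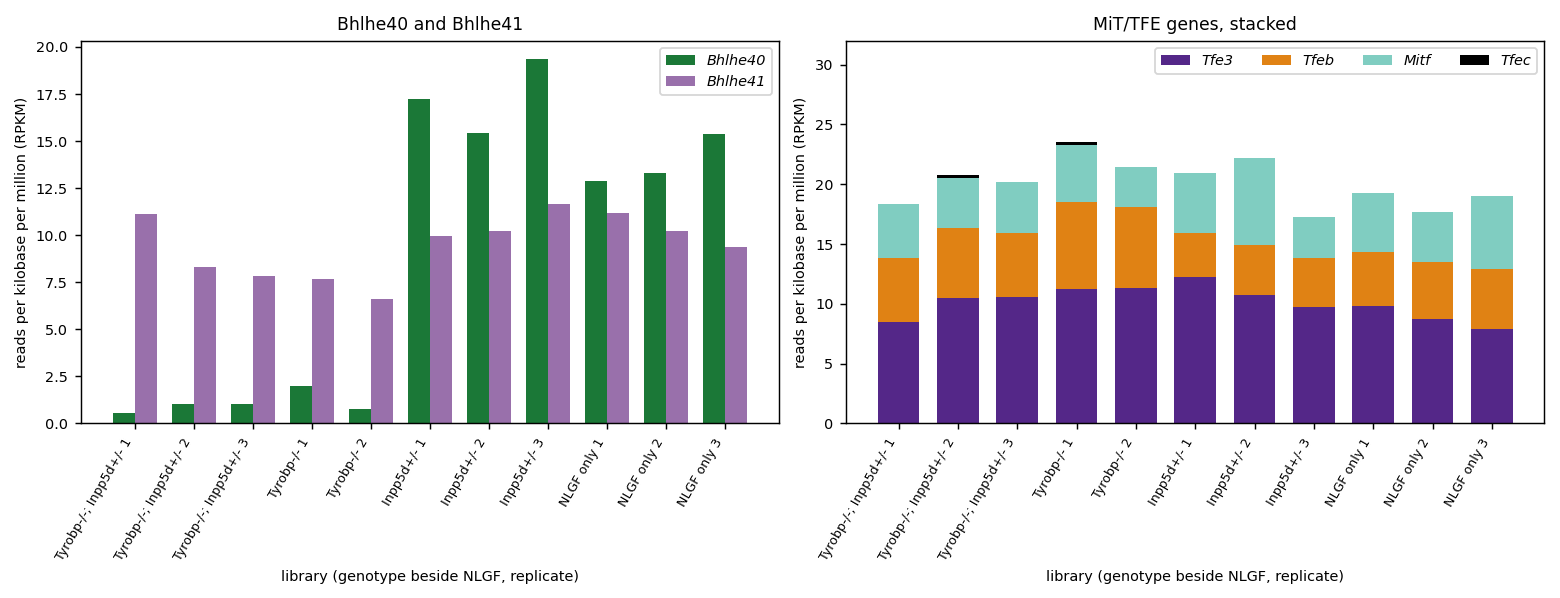
Length-scaled levels (RPKM) in each library, ordered by genotype. The left panel sets Bhlhe40 beside Bhlhe41, where Bhlhe40 is at most 1.97 RPKM in Tyrobp-/- libraries and at least 12.9 RPKM in the others. The right panel stacks the MiT/TFE genes, whose sum stays between 17.3 and 23.5 RPKM.

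Tfeb moved the other way and by much less. It had 30.2, 33.4 and 30.5 CPM in compound mutant libraries and 41.2 and 38.4 CPM in Tyrobp-/-;NLGF libraries, against 20.8, 23.6 and 22.9 CPM in Inpp5d+/-;NLGF libraries and 25.5, 26.6 and 28.4 CPM in NLGF libraries. The gene lies at chr17:47737030-47792419, plus strand. All 5 Tyrobp-/- libraries lay above all 6 libraries with Tyrobp. Averaged over both Inpp5d genotypes, Tfeb rose by 0.53 on the log2 scale (SE 0.09, 95% interval 0.32 to 0.73, adjusted p = 0.0132 by edgeR), or 1.44-fold. In the separate comparisons it did not pass: the log2 fold change was 0.57 for Tyrobp-/-;NLGF against NLGF (adjusted p = 0.108 by edgeR) and 0.48 for the compound mutant against Inpp5d+/-;NLGF (adjusted p = 0.135 by edgeR), while DESeq2 called both. For the compound mutant against NLGF it was 0.23 (95% interval -0.05 to 0.50, adjusted p = 0.485 by edgeR).

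The averaged call of Tfeb was lost without either Tyrobp-/-;NLGF library, while its fitted change stayed at 0.50 to 0.55 over the 11 libraries left out in turn. Either omission leaves a single library in that group, and calls over all genes also went down. Without Tyrobp-/-;NLGF replicate 1 the change was 0.50 (adjusted p = 0.0785 by edgeR), and without Tyrobp-/-;NLGF replicate 2 it was 0.55 (adjusted p = 0.0549 by edgeR). It was 0.48 when both libraries richest in S100a8 were left out (adjusted p = 0.156 by edgeR) and 0.41 with the neutrophil covariate (adjusted p = 0.477 by edgeR). The neutrophil and monocyte sums given above move with Tyrobp genotype as Tfeb does, and their part in its change was not tested beyond these fits. Within both Tyrobp genotypes the libraries with 1 copy of Inpp5d were the lower ones for Tfeb. The averaged Inpp5d+/- effect was -0.30 (95% interval -0.51 to -0.09) and did not pass (unadjusted p = 0.00951, adjusted p = 0.943 by edgeR).

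Mitf, Tfe3 and Tfec, the other MiT/TFE genes, gave no call. Mitf, best known for melanocyte and osteoclast development, had 28.1, 25.9 and 26.2 CPM in compound mutant libraries and 29.8 and 20.8 CPM in Tyrobp-/-;NLGF libraries, against 30.9, 45.1 and 21.7 CPM in Inpp5d+/-;NLGF libraries and 31.0, 25.9 and 37.9 CPM in NLGF libraries. The groups overlapped, and the averaged change was -0.30 (95% interval -0.75 to 0.14). Tfe3, which shares much of its target set with TFEB, had 78.7, 96.9 and 97.7 CPM in compound mutant libraries and 104 and 105 CPM in Tyrobp-/-;NLGF libraries, against 113, 99.6 and 90.5 CPM in Inpp5d+/-;NLGF libraries and 90.8, 81.2 and 73.4 CPM in NLGF libraries.

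The NLGF libraries were the lowest group for Tfe3 on average. Its log2 fold change was 0.35 (95% interval 0.03 to 0.68, adjusted p = 0.358 by edgeR) for Tyrobp-/-;NLGF against NLGF and 0.31 (95% interval 0.01 to 0.60, adjusted p = 0.952 by edgeR) for Inpp5d+/-;NLGF against NLGF, and neither passed. For the compound mutant against NLGF it was 0.16 (95% interval -0.14 to 0.45). The interaction was -0.51 (95% interval -0.94 to -0.07) and did not pass (unadjusted p = 0.0273, adjusted p = 0.9999 by edgeR).

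Tfec, a MiT/TFE factor of macrophages, had counts in 2 of the 11 libraries. These were Tyrobp-/-;NLGF replicate 1 (70 counts, 1.39 CPM) and compound mutant replicate 2 (72 counts, 1.15 CPM), the same libraries that held the most S100a8. The other 3 Tyrobp-/- libraries and all 6 libraries with Tyrobp had 0 counts, where 3 counts would be 0.0477 to 0.1 CPM. Tfec passed the filter on low counts through these libraries alone, so no fold change is given. The part of neutrophil RNA in the Tfec reads was not tested.

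The make-up of the MiT/TFE transcripts, was taken as shares of their summed RPKM. Tfe3 was the largest share in every library, 46.3 to 52.9% in Tyrobp-/- libraries, against 41.6 to 58.5% in the others. The share of Tfeb was 26.7 to 31.5% in Tyrobp-/- libraries, against 17.6 to 26.6% in the others, and these ranges just failed to overlap. Mitf made up 15.6 to 24.7% in Tyrobp-/- libraries, against 20.2 to 32.8% in the rest. Tfec reached at most 1.06%.

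The liver X receptor genes were uneven. Nr1h2, which encodes the widely expressed LXR beta, had 32.3 to 40.8 CPM in compound mutant libraries and 36.7 to 37.2 CPM in Tyrobp-/-;NLGF libraries, against 28.1 to 36.4 CPM in Inpp5d+/-;NLGF libraries and 25.1 to 43.1 CPM in NLGF libraries. Its averaged change was 0.07 (95% interval -0.27 to 0.42), and the groups overlapped. Nr1h3, which encodes LXR alpha, was sparse. It had 0.301, 1.70 and 0.442 CPM in compound mutant libraries and 0.0398 and 3.81 CPM in Tyrobp-/-;NLGF libraries, against 2.53, 2.61 and 0.979 CPM in Inpp5d+/-;NLGF libraries and 0.673, 0 and 2.10 CPM in NLGF libraries. Libraries of one genotype differed as much as the genotypes did, so no direction could be read.

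Pparg, which drives lipid uptake and storage in macrophages and fat cells, was also sparse. It had 0.0188, 4.04 and 0 CPM in compound mutant libraries and 1.57 and 3.75 CPM in Tyrobp-/-;NLGF libraries, against 2.37, 0 and 1.24 CPM in Inpp5d+/-;NLGF libraries and 0, 0 and 0.0159 CPM in NLGF libraries. The NLGF libraries held 1 read between them, whereas 6 libraries of the other genotypes had reads and 2 had none. Pparg passed the filter on low counts through those libraries alone, so no fold change or test against NLGF is given.

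Rxra, the shared partner of these receptors, had 8.19, 9.31 and 13.3 CPM in compound mutant libraries and 17.2 and 11.3 CPM in Tyrobp-/-;NLGF libraries, against 15, 10.4 and 9.99 CPM in Inpp5d+/-;NLGF libraries and 17.3, 17.5 and 14.7 CPM in NLGF libraries. All 3 compound mutant libraries lay below all 3 NLGF libraries. That log2 fold change was -0.68 (95% interval -1.28 to -0.09) and did not pass (adjusted p = 0.319 by edgeR). The averaged Inpp5d+/- effect on Rxra was -0.48 (95% interval -0.92 to -0.03, adjusted p = 0.943 by edgeR).

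**Figure D3:**
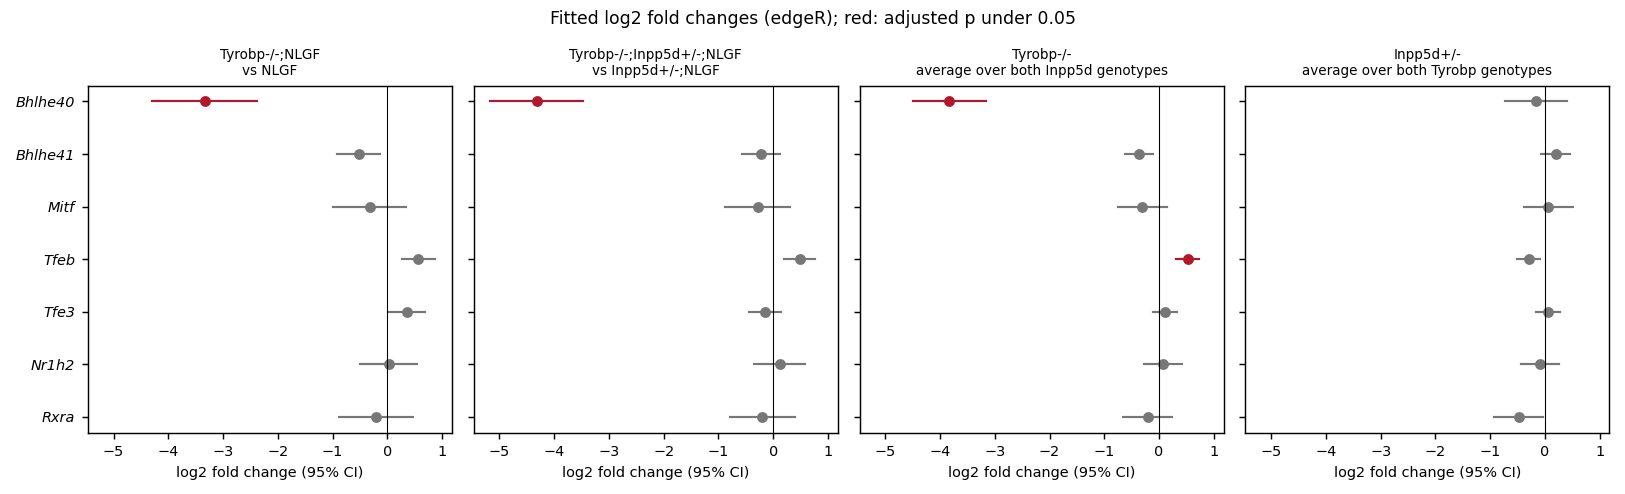
Fitted log2 fold changes of 7 regulators with 95% intervals, for Tyrobp-/-;NLGF over NLGF, the compound mutant over Inpp5d+/-;NLGF, and the averaged effects of Tyrobp-/- and of Inpp5d+/-. Red marks an adjusted p under 0.05 by edgeR: Bhlhe40 in the first 3 panels (-3.34, -4.32 and -3.83) and Tfeb in the third (0.53). The sparse genes Tfec, Nr1h3 and Pparg are not drawn.

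Counted over the 10 genes, all of which passed the filter on low counts, 1 fell (Bhlhe40) and none rose for Tyrobp-/-;NLGF against NLGF, where 0.863% of all tested genes were called. The same count, again Bhlhe40, was found for the compound mutant against Inpp5d+/-;NLGF (0.897% of all genes called) and for the compound mutant against NLGF (0.873%). In the averaged Tyrobp-/- effect 1 rose (Tfeb) and 1 fell (Bhlhe40), where 4.75% of all genes were called, 2.08% higher and 2.66% lower. In that comparison 1 regulator was higher and 1 lower with no overlap between the 5 and the 6 libraries, against 2.7% and 3.47% of all genes. None of the 10 was called by edgeR or DESeq2 for the compound mutant against Tyrobp-/-;NLGF (0.00981% of all genes called by edgeR), for Inpp5d+/-;NLGF against NLGF, for the averaged Inpp5d+/- effect or for the interaction (0% each). Inpp5d itself was not called by edgeR in any of these comparisons.

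Without adjustment, at p under 0.05, the comparisons that change Tyrobp held 5 of the 10 for Tyrobp-/-;NLGF against NLGF (12.1% of all genes), 2 for the compound mutant against Inpp5d+/-;NLGF (13.4%), 3 for the compound mutant against NLGF (13%) and 5 for the averaged effect (19.2%). Those that do not held 1 for the compound mutant against Tyrobp-/-;NLGF (4.08%) and 2 each for Inpp5d+/-;NLGF against NLGF (4.66%), the averaged Inpp5d+/- effect (5.16%) and the interaction (4.7%). Pparg is among those counted for Tyrobp-/-;NLGF against NLGF, for the compound mutant against NLGF, for Inpp5d+/-;NLGF against NLGF, for the averaged Tyrobp-/- effect and for the interaction, and Tfec is among those of the averaged Tyrobp-/- effect. Both passed the filter only through the libraries where they have reads, so nothing is read from these counts.

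Ordered by level per kilobase, the genes changed places between genotypes, and Bhlhe40 moved the furthest. In compound mutant libraries the order was Nr1h2 (10.7 ± 1.3 RPKM, SD, n = 3), Tfe3 (9.84 ± 1.16), Bhlhe41 (9.09 ± 1.80), Tfeb (5.54 ± 0.313), Mitf (4.32 ± 0.197), Rxra (1.63 ± 0.427) and Bhlhe40 (0.869 ± 0.295). In NLGF libraries it was Bhlhe40 (13.9 ± 1.34 RPKM, SD, n = 3), Nr1h2 (10.8 ± 2.89), Bhlhe41 (10.3 ± 0.889), Tfe3 (8.83 ± 0.940), Mitf (5.10 ± 0.969), Tfeb (4.74 ± 0.251) and Rxra (2.62 ± 0.252). Nr1h2, Bhlhe41 and Tfe3 had overlapping ranges in both genotypes, and Mitf and Tfeb did so in NLGF libraries but not in compound mutant libraries. Tyrobp-/-;NLGF libraries had the order Tfe3 (11.3 RPKM), Nr1h2 (11), Bhlhe41 (7.16), Tfeb (7.01), Mitf (4.08), Rxra (2.27) and Bhlhe40 (1.37). Inpp5d+/-;NLGF libraries had Bhlhe40 (17.3 RPKM), Tfe3 (10.9), Bhlhe41 (10.6), Nr1h2 (9.85), Mitf (5.26), Tfeb (3.96) and Rxra (1.87). Bhlhe40 was thus the highest of the 10 by mean in both groups with Tyrobp and the seventh in both groups without it. Nr1h3, Pparg and Tfec came last, at 0.549, 0.401 and 0.0413 RPKM over all 11 libraries.

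Among 9224 genes with a mean of at least 5 CPM, those with the profile nearest to Bhlhe40 over the 11 libraries were Fabp5, Tmem163, Cst7, Igf1 and Ank. Likeness was measured as the root mean square distance between log2 CPM profiles, each centred on its own mean. It was 0.53, 0.60, 0.69, 0.70 and 0.72, against a median of 2.07 over all these genes. Profiles were not scaled, so a gene that hardly varies lies far from Bhlhe40. That median therefore mainly reflects the size of the Bhlhe40 change and does not show how unusual the nearest genes are. Fabp5 carries fatty acids, Cst7 encodes the protease inhibitor cystatin F, Igf1 is a growth factor, Ank is a pyrophosphate transporter and Tmem163 a zinc transporter. The nearest, Fabp5, averaged 8.85 ± 1.18 CPM in compound mutant libraries (SD, n = 3) and 7.14 ± 4.03 CPM in Tyrobp-/-;NLGF libraries (SD, n = 2), against 96.5 ± 11.8 CPM in Inpp5d+/-;NLGF libraries and 103 ± 29.7 CPM in NLGF libraries (SD, n = 3 each). Apart from Tmem163, the nearest genes are on a list of 20 genes of disease-associated microglia. Of that list 18 fell and none rose in the averaged Tyrobp-/- effect, where 2.66% of all tested genes were called lower. That list, too, was chosen with earlier results of these data known, so its count is not independent of them. The nearest genes were picked by likeness to Bhlhe40 in these data, so their own fall follows from that choice.

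**Figure D4:**
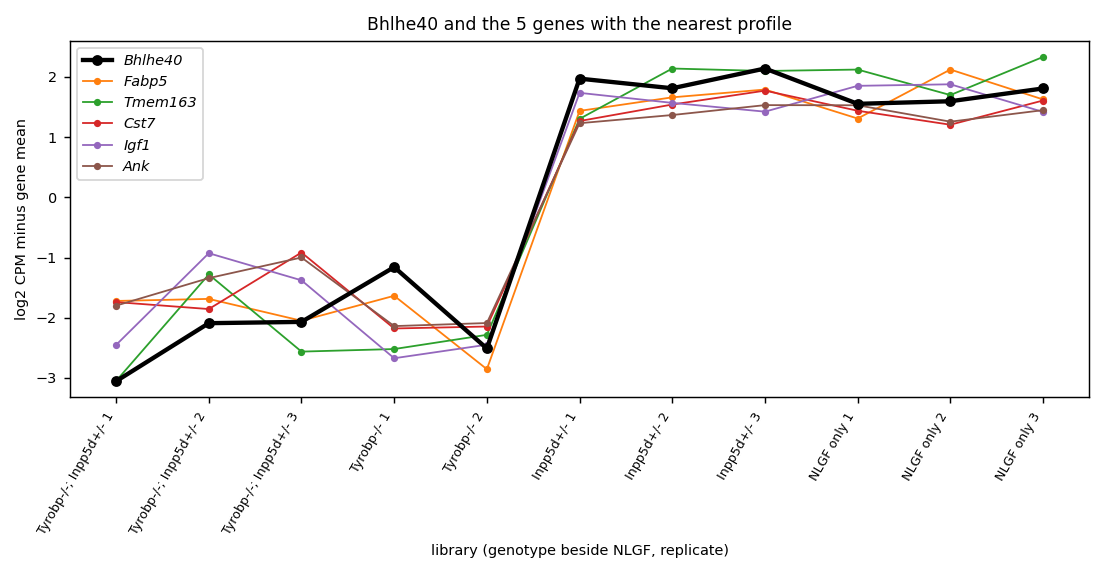
Log2 CPM of Bhlhe40 and of the 5 genes nearest to it, each minus its mean over the 11 libraries. Lines join the values of a gene and libraries are ordered by genotype. All 6 genes lie below their mean in the 5 Tyrobp-/- libraries and above it in the 6 others. The 5 were chosen by likeness to Bhlhe40, so this shared direction follows from the choice. The libraries of one genotype are not in the same order for each gene.

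Genes of the pathways around these regulators were read from 8 lists in the averaged Tyrobp-/- effect, where the median log2 fold change over all tested genes was 0.02 and 4.75% of them were called, 2.08% higher and 2.66% lower. Beside these shares, 1 to 3 called genes in a list are given as single genes and not as a result about the list. In the CLEAR network, the lysosomal targets of the MiT/TFE factors, 11 of 45 genes fell, 1 rose, and the median was -0.24. Fewer were called in the separate comparisons. Against NLGF, 4 fell and 1 rose in Tyrobp-/-;NLGF and again in the compound mutant, and 3 fell in the compound mutant against Inpp5d+/-;NLGF. The list was chosen with earlier results of these data known, so its share of calls is not independent of them. The genes that fell in the averaged effect encode hydrolases (Ctsb, Ctsd, Gaa, Glb1, Gusb, Naglu, Tpp1), a subunit and an accessory protein of the proton pump (Atp6v0c, Atp6ap1), the chloride transporter Clcn7 and the membrane protein Gpnmb. Ctsb, which encodes cathepsin B, averaged 5657 ± 783 CPM in compound mutant libraries and 5040 ± 1.48 CPM in Tyrobp-/-;NLGF libraries, against 8412 ± 615 CPM in Inpp5d+/-;NLGF libraries and 7918 ± 273 CPM in NLGF libraries. These and later group values are means ± SD with the number of libraries given at the start. The log2 fold change of Ctsb was -0.61 (SE 0.07, adjusted p = 0.00151 by edgeR). Gusb, which encodes beta-glucuronidase, fell by 0.77 (SE 0.08, adjusted p = 0.000887 by edgeR). Gusb and Gpnmb are also on the disease-associated list named above.

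Gpnmb showed the widest gap of this list, at 0.05 ± 0.0265 CPM in compound mutant libraries and 0.736 ± 1.01 CPM in Tyrobp-/-;NLGF libraries, against 52.1 ± 11.2 CPM in Inpp5d+/-;NLGF libraries and 47.7 ± 4.02 CPM in NLGF libraries. Sgsh, a heparan sulfate sulfatase, rose by 1.38 (SE 0.18, adjusted p = 0.00308 by edgeR), with 18.8 to 28.3 CPM in Tyrobp-/- libraries and 6.76 to 12.9 CPM in the others. Other members did not pass, among them Lamp1 (-0.24, adjusted p = 0.125 by edgeR) and Sqstm1 (0.03, adjusted p = 0.85 by edgeR). The count of 12 changed genes became 6 without Tyrobp-/-;NLGF replicate 2, 1 with the neutrophil covariate and 7 when both libraries richest in S100a8 were left out. In the same fits the calls over all genes also went down, and the change of Ctsb was -0.61, -0.63 and -0.58 and that of Gusb -0.79, -0.72 and -0.73. Ctsb and Gusb are among the 4 genes of the list with the smallest p, so they do not stand for its other members.

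Of 23 tested genes that control MiT/TFE factors at the lysosome, 2 fell, none rose and the median was 0.03. Mcoln1, the lysosomal calcium channel that activates TFEB, had 48.6 to 59.6 CPM in Tyrobp-/- libraries, against 70.3 to 90.2 CPM in the others. It fell by 0.57 (SE 0.09, adjusted p = 0.00867 by edgeR). That call was lost without Tyrobp-/-;NLGF replicate 2, without both libraries richest in S100a8 and with the neutrophil covariate. Rragd, a Rag GTPase gene, fell by 1.56 (adjusted p = 0.0441 by edgeR) and kept its call when 2 of the 11 libraries were left out in turn, but not for the other 9. Flcn and Mtor had fitted changes of 0.31 and 0.41 with adjusted p of 0.298 and 0.61 by edgeR.

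Among 25 tested genes for E-box factors and bHLH partners, Id2 rose and Hif1a and Srebf2 fell, with a median of 0.08. Id2, an inhibitor of bHLH dimers, averaged 258 ± 14.3 CPM in compound mutant libraries and 224 ± 3.34 CPM in Tyrobp-/-;NLGF libraries, against 158 ± 20.6 CPM in Inpp5d+/-;NLGF libraries and 127 ± 9.35 CPM in NLGF libraries. Hif1a, which encodes the hypoxia factor, averaged 205 ± 39.3 CPM in compound mutant libraries and 146 ± 8.57 CPM in Tyrobp-/-;NLGF libraries, against 476 ± 45.9 CPM in Inpp5d+/-;NLGF libraries and 472 ± 29.3 CPM in NLGF libraries. The log2 fold changes were 0.76 (SE 0.08, adjusted p = 0.00113) for Id2 and -1.45 (SE 0.11, adjusted p = 0.000139) for Hif1a by edgeR. Srebf2, the regulator of cholesterol synthesis, fell by 1.22 (SE 0.15, adjusted p = 0.00219 by edgeR). With the neutrophil covariate only Hif1a kept its call. None of 14 tested circadian clock genes, where BHLHE40 and BHLHE41 act as repressors, passed by edgeR or DESeq2. There were 2 with an unadjusted p under 0.05 by edgeR, where 19.2% of all tested genes had one. Of the clock genes Nr1d1 had 0.477 to 6.45 CPM in Tyrobp-/- libraries and 1.65 to 25.5 CPM in the others.

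Of 15 tested targets of the liver X receptors 1 rose and 2 fell, and the median was -0.05. Abcg1, a cholesterol exporter, rose by 0.56 (SE 0.10, adjusted p = 0.0139 by edgeR), with 293 to 352 CPM in Tyrobp-/- libraries, against 179 to 268 CPM in the others. The call was lost without either of the Tyrobp-/-;NLGF libraries, without both libraries richest in S100a8 and with the neutrophil covariate. Scd2, a fatty acid desaturase gene, averaged 62.8 ± 8.70 CPM in compound mutant libraries and 65.1 ± 1.71 CPM in Tyrobp-/-;NLGF libraries, against 235 ± 48.6 CPM in Inpp5d+/-;NLGF libraries and 187 ± 26.6 CPM in NLGF libraries, and it fell by 1.72 (SE 0.13, adjusted p = 0.000182 by edgeR). Abca1, the other main exporter, had a change of 0.29 (adjusted p = 0.408 by edgeR) and Apoe one of -0.79 (adjusted p = 0.0626 by edgeR).

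Of 16 tested PPAR and RXR targets 3 fell, Fabp5, Lpl and Ucp2, none rose and the median was -0.20. Lpl, the lipoprotein lipase gene, which is on both target lists, fell by 3.28 (SE 0.29, adjusted p = 0.00038 by edgeR), with 19.3 to 105 CPM in Tyrobp-/- libraries, against 299 to 464 CPM in the others. Ucp2, a mitochondrial carrier gene, fell by 0.54 (adjusted p = 0.0426 by edgeR), and it kept its call when 2 of the 11 libraries were left out in turn. Genes of fatty acid oxidation such as Cpt1a (-0.25), Acadm (0.07) and Hadha (-0.05) did not pass. Fabp5 and Lpl are also on the disease-associated list named above.

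**Figure D5:**
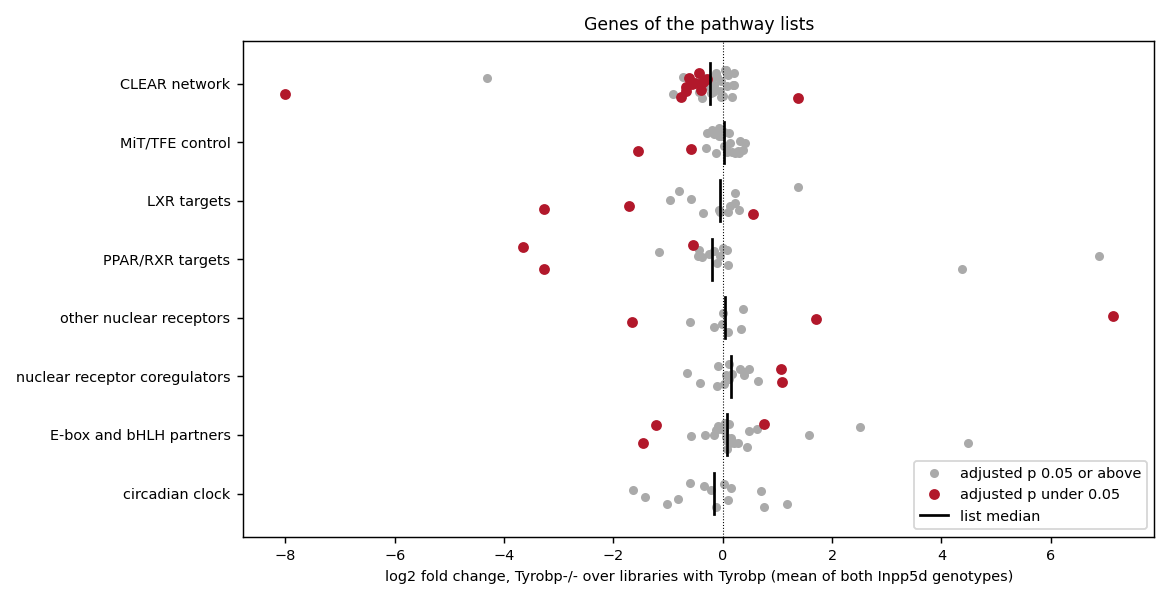
Log2 fold changes of the tested genes of 8 pathway lists for the averaged Tyrobp-/- effect. Each point is a gene, red marks an adjusted p under 0.05 by edgeR and black bars are list medians. The CLEAR network, the longest list with 45 genes, has 11 called lower and 1 higher. For genes at or near 0 in one set of libraries, such as Rara and Gpnmb, the fitted value depends on the prior count.

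Among 10 tested genes of other nuclear receptors, Rxrg fell and Rara and Nr4a1 rose, and none of these calls held under every alternative. Rxrg, a second RXR gene, had 1.28 to 7.66 CPM in Tyrobp-/- libraries, against 8.70 to 16.4 CPM in the others. Rara, a retinoic acid receptor gene that is also expressed in myeloid blood cells, had 0.362 to 3.28 CPM in Tyrobp-/- libraries and 0 to 0.144 CPM in the others. Rara passed the filter on low counts through the Tyrobp-/- libraries alone, so nothing is read from its call. Ncoa6, a coactivator of nuclear receptors, rose by 1.08 (adjusted p = 0.037 by edgeR). None of these 4 was called without Tyrobp-/-;NLGF replicate 1, without Tyrobp-/-;NLGF replicate 2, without both libraries richest in S100a8 or with the neutrophil covariate.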

How the data were processed

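Per the labels' protocols, RNA of sorted microglia was made into cDNA with the SMART-Seq v4 kit, a kit that leaves strand unmarked. The submitters' processing notes name STAR (2.7.3a), featureCounts (1.6.4) and a genome given as both GRCm38.p6 and mm10. The authors deposited whole-number read counts per gene with exon coordinates and an exon length per gene, without normalisation. Not given in the sources used here: annotation release, strand setting and treatment of multi-mapping reads.

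Groups follow the genotype label. The labels do not tie libraries to litters or batches, and p-values therefore reflect only how much these libraries vary, which may be technical. The 10 regulators, the gene lists and the tests were chosen with earlier results of these data known. With edgeR 4.0.16 in R 4.3.3, genes were filtered with filterByExpr (minimum count 10, minimum total 15), which left 20390 of 55401, sizes were scaled by TMM, and 1 quasi-likelihood model with a coefficient per genotype was fitted to all 11 libraries. Benjamini-Hochberg adjustment ran over all tested genes in each comparison, with a threshold of 0.05. The standard error (SE) was taken from the test statistic. CPM values use the scaled sizes, and RPKM values divide them by the deposited exon length. A floor of 3 counts is 0.0477 to 0.1 CPM, for counting error only.

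Besides the 10 regulators, the text names Tyrobp, Inpp5d and S100a8, up to 4 genes per list with the smallest p in the averaged Tyrobp-/- effect, the 5 genes nearest to a called regulator, and genes that overlap a regulator. Further list members that passed are named to complete a count of calls, and those that did not (Lamp1, Sqstm1, Flcn, Mtor, Abca1, Cpt1a, Acadm, Hadha) were chosen after their values were seen. The fit was tested on simulated counts. Alternatives were RLE scaling, no filter, DESeq2 1.42.0, limma-voom 3.58.1 with quality weights, a neutrophil covariate (mean log2 CPM of 12 markers), leaving out the 2 libraries with most S100a8, fits on 2 groups, and each library left out. Promoters are those of RefSeq, GRCm38.p6. A gene of the cofactor list is not reported here.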

Additional observations from a re-analysis of the deposited data

How the results depend on the processing

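Bhlhe40 kept its direction and its call in the averaged Tyrobp-/- effect under all 17 alternatives (-4.62 to -3.57). For Tyrobp-/-;NLGF against NLGF, the count of called regulators was 1 and stayed at 1 whichever library was left out. It became 0 in the fit on these 2 groups only, which has fewer samples, and 3 with DESeq2 (Bhlhe40, Tfeb and Pparg). The Pparg call is against a group with 1 read and rests only on libraries where the gene has reads, so nothing is read from it. With DESeq2 the count was 2 for the compound mutant against Inpp5d+/-;NLGF and 2 for the compound mutant against NLGF, in place of 1. The added call against NLGF was of a sparse gene (Tfec, Nr1h3 or Pparg) and is not read either. In the averaged Tyrobp-/- effect the count of 2 became 1 with the neutrophil covariate and 1 without the 2 libraries with most S100a8, and ran from 1 to 3 over the libraries left out. The causes were not tested. Counts over all genes moved more: the averaged effect had 968 calls with edgeR, 2365 with DESeq2, 63 with the neutrophil covariate and 216 without the 2 libraries with most S100a8, and Tyrobp-/-;NLGF against NLGF had 176, 1153, 14 and 27. Leaving out 1 library gave 356 to 774 for the averaged effect, lowest without Tyrobp-/-;NLGF replicate 1 (372) or replicate 2 (356), and 31 to 201 for Tyrobp-/-;NLGF against NLGF, lowest without the same replicate 1 (31) or replicate 2 (36) and 88 and 108 without NLGF replicates 2 and 3. It gave 66 to 183 in place of 183 for the compound mutant against Inpp5d+/-;NLGF, lowest without compound mutant replicate 1, and 62 to 152 in place of 178 for the compound mutant against NLGF, lowest without NLGF replicate 2. The shares of all genes called in the report rest on these counts. Recounts of the pathway lists under these alternatives were chosen after seeing the data. No paired analysis was possible because replicate numbers were assigned by accession order and link no library of one genotype to one of another. Groups of 2 or 3 libraries limit what could be called, and Nr1h3, Pparg and Tfec are too sparse for a direction.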
